A study of Mus musculus with 9 samples.

Results

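Knockouts of cGAS and of STING were pooled and compared with wild type in mouse striatum, the forebrain nucleus that receives cortical and dopaminergic input. The contrast was the mean of both knockout group means minus the WT mean. It used all 9 count files of the series, 6 from knockouts and 3 from WT, and was fitted over the 17821 of 54532 gene IDs that passed a filter on low counts. Genes were called alike in both knockouts when their mean was at least 5 CPM (read counts scaled to the size of the library), all 6 knockout libraries lay on the same side of all 3 WT libraries, and the smaller of the knockout log2 fold changes was at least 50% of the larger.

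The groups were cGAS KO (3 libraries), STING KO (3 libraries) and WT (3 libraries), all on a C57BL/6J background. Both knockout lines were made with CRISPR-Cas9, a nuclease system that cuts a chosen gene. The series describes knockout brains taken after ischemic stroke, and the labels of single samples, WT included, do not repeat the stroke, its time, or the animals' age and sex. Polyadenylated RNA was sequenced. The labels number the libraries but do not say that each came from its own animal, so a p-value here measures only how these libraries vary, which may be technical.

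cGAS is an enzyme that binds double-stranded DNA in the cytosol and makes the cyclic dinucleotide cGAMP. STING, a receptor in the endoplasmic reticulum membrane, binds cGAMP and recruits the kinase TBK1, which activates the transcription factor IRF3 and, less directly, NF-kB, so that type I interferon and inflammatory genes are switched on. In the brain the pathway is best known in microglia, and DNA released from damaged nuclei and mitochondria is its usual trigger in injured tissue. cGAS acts upstream of STING in this chain, and STING can also be reached by other routes.

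Total counts ran from 14129021 to 21286775 per library. Libraries cGAS KO 2, STING KO 2 and WT 3 had fewer weakly detected genes than the rest (2280 to 4723 genes with 1 to 9 counts, against 7096 to 7927 in the other 6) and are called low-complexity libraries below. Each group holds 1 of them, so the contrast was also fitted over the other 6 libraries, 4 from knockouts and 2 from WT. Library WT 3 had a lower summed level of medium spiny neuron markers (10890 CPM over 28 genes) than the other 8 libraries (17660 to 22000 CPM), and library WT 1 a higher summed level of choroid plexus and ependyma markers (4563 CPM over 17 genes, against 313.4 to 1246 CPM in the other 8). In bulk tissue, fewer cells of a type and less RNA per cell cannot be told apart.

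The targeted genes were checked first. Cgas had 1.10, 0.377 and 0.262 CPM with cGAS knocked out, 1.55, 1.04 and 1.45 CPM with STING knocked out, and 1.40, 2.63 and 3.18 CPM in WT. The cGAS KO libraries were lower than all WT libraries, and the STING KO libraries overlapped WT. The log2 fold change was -2.02 in cGAS KO and -0.82 in STING KO, and -1.42 ± 0.51 (SE) pooled (edgeR adjusted p = 0.9999). Sting1 was at 2.67, 1.66 and 2.75 CPM in cGAS KO, 2.18, 1.04 and 1.84 in STING KO, and 4.06, 3.01 and 1.34 in WT. Its STING KO libraries overlapped WT (log2 fold change -0.73), so this gene's counts do not separate the STING KO libraries from WT. The position of the edits was not given by the labels, and counts over a whole gene need not drop after a small edit. Both transcripts lay at a few CPM in WT.

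No gene was called between the pooled knockouts and WT (0% of 17821 genes, edgeR quasi-likelihood test with Benjamini-Hochberg adjustment, threshold 0.05), and the smallest adjusted p was 0.9999. At an unadjusted p under 0.05, 180 genes were higher (1.01%) and 189 lower (1.06%), fewer than the 891 that a uniform distribution of p would give. Over the 6 libraries the test again called 0 genes, with 630 higher (3.57%) and 492 lower (2.79%) at an unadjusted p under 0.05. The common biological coefficient of variation was 38.8% over 9 libraries and 17.2% over 6. DESeq2 called 4 genes (0.0125% of 31936): Baiap3 (adjusted p = 0.0124), Fosl2 (0.0324) and the unplaced-scaffold gene AC149090.1 (0.0124) higher, and the predicted gene Gm10600 (0.00268) lower. Across all alternatives the adjusted p ran from 0.00387 to 0.99999 for Baiap3 and Fosl2, from 0.0124 to 0.99999 for AC149090.1 and from 0.00268 to 0.99999 for Gm10600. The voom test of limma called 0 genes with equal library weights. With estimated library weights it called 30 genes higher (0.168%) and 8 lower (0.0449%). Those weights were 4.416 for WT 2 and 1.144 and 0.1627 for WT 1 and WT 3, so its WT mean rested mostly on 1 library. A stricter test, which asked each gene to differ from WT in cGAS KO and in STING KO separately, called 0 genes in edgeR, with 49 at an unadjusted p under 0.05. It also called 0 in DESeq2 and in both voom fits. Both knockout comparisons share the same WT libraries.

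Under the rule for genes alike, 131 genes were higher in all 6 knockout libraries (1.09% of the 12001 genes of at least 5 CPM) and 83 were lower (0.692%). Without the limits on level and relative size, 189 of 17821 genes had every knockout library above every WT library (1.06%) and 152 had every one below (0.853%). How many genes would separate in this way under exchanged group labels was not tested. The counts alone are therefore not evidence of a shared response to the knockouts. Of the 214 genes alike, 208 are protein coding. The 131 higher genes had pooled log2 fold changes of 0.13 to 1.13 (median 0.36), and the 83 lower genes of -0.80 to -0.13 (median -0.34). No gene among the 214 passed the edgeR test of the difference between the knockouts, and 1 (Fosl2) had an unadjusted p under 0.05 for it. The rule selects genes with a small difference, so this outcome is no support for agreement. Over all 17821 genes that test called 0, with 258 at an unadjusted p under 0.05. All 214 kept their direction over the 6 libraries, which are among the 9 that the rule used. With fewer libraries the rule is easier to meet, and it then gave 963 higher and 886 lower genes over the 6 libraries. Leaving out a single library gave 373 higher and 446 lower without WT 3, 359 and 337 without WT 1, 309 and 244 without STING KO 2, 157 and 171 without WT 2, 153 and 132 without cGAS KO 3 and 170 and 127 without cGAS KO 2. Under the main rule and all 14 alternatives that could be applied to it, 31 genes were alike, 16 higher and 15 lower. Among them were Nr4a3, Baiap3, Sik1, Zfp622 and Rps19 higher and Car8 and Sult1a1 lower. Most of these alternatives only leave out or rescale the same libraries, so meeting the rule in them is not independent support.

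The genes higher and lower in both knockouts differed in base composition. Median transcript GC content was 57.7% in the genes higher in both knockouts, 44.6% in those lower, and 49.4% over all genes of at least 5 CPM. Of the 131 higher genes 117 lay above that overall median, and of the 83 lower genes 69 lay below it. Libraries differed in the same property: the median log2 level of the tenth of genes richest in GC minus that of the poorest, each relative to the gene's mean, was -0.74 in WT 3, -0.12 in WT 2 and 0.12 in WT 1, against 0.45, -0.20 and 0.09 in cGAS KO and 0.56, -0.52 and 0.41 in STING KO. The lowest value belonged to a WT library and the 3 highest to knockout libraries. Within every group the low-complexity library (WT 3, cGAS KO 2 or STING KO 2) had the lowest value. After each library's trend on GC content and transcript length was removed, an alternative added after seeing the data, the same rule gave 116 higher (0.966% of 12007) and 83 lower genes (0.691%). Only 53 genes, 30 higher and 23 lower, met the rule both with and without the correction, which is 24.8% of the first list and 26.6% of the second. The sign of the pooled log2 fold change was the same with the correction for 212 of the 214. The corrected lists had median GC contents of 49.2% and 50.3%. The other 161 genes did not meet the rule after it, and how much of their difference from WT goes with base composition was not tested further.

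**Figure D1:**
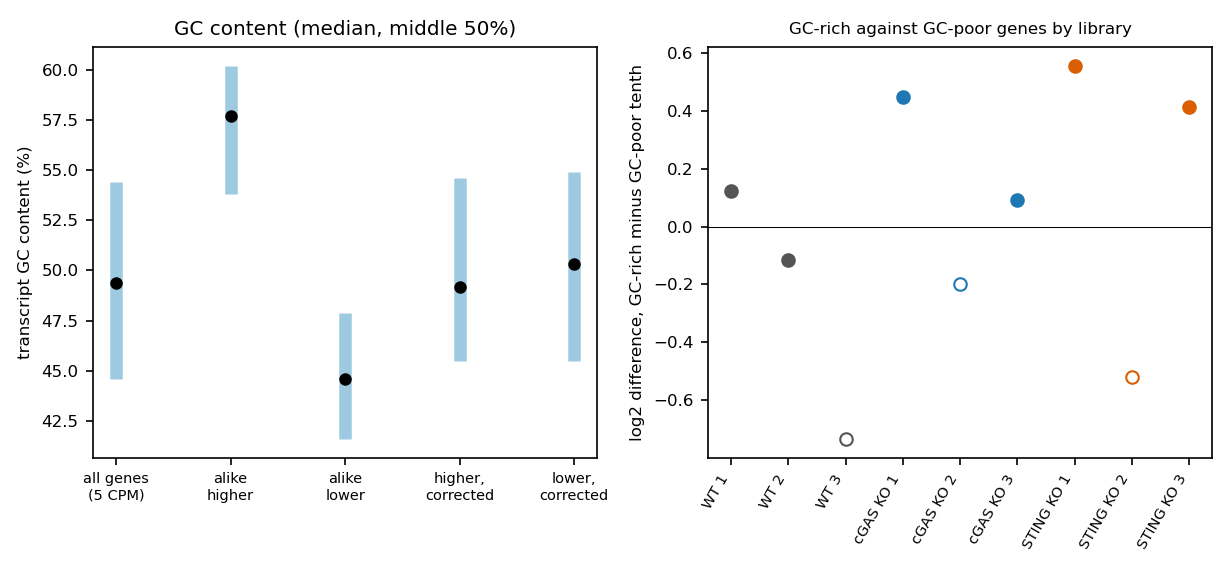
Left, transcript GC content (percent) of all genes of at least 5 CPM and of the genes alike in both knockouts, without and with the GC and length correction; points are medians and bars span the middle 50%. Right, log2 level of GC-rich minus GC-poor genes in each library (open symbols are low-complexity libraries). The uncorrected higher and lower lists sit at 57.7% and 44.6%, and WT 3 has the lowest library value, -0.74.

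In the plot of both knockouts side by side, genes alike form 2 groups along the line of equal change because the rule asks for similar size.

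**Figure D2:**
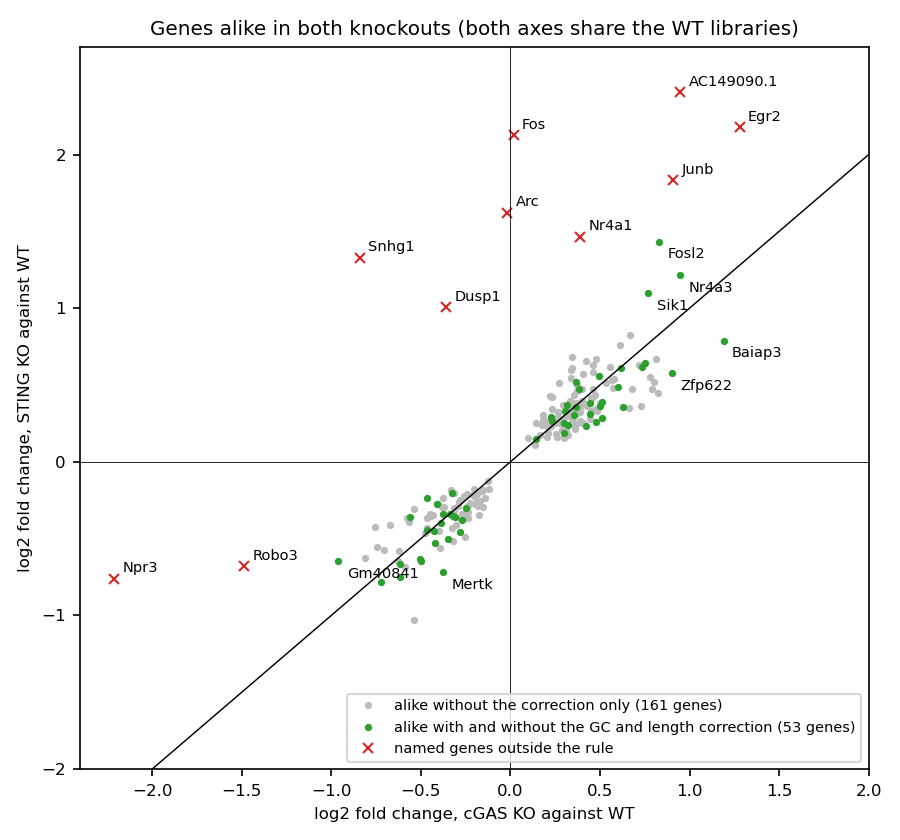
Log2 fold change against WT in cGAS KO (x axis) and STING KO (y axis). Green points are the 53 genes alike with and without the correction, grey points the 161 alike without it only, and crosses are named genes outside the rule; the diagonal marks equal change. Both axes share the WT libraries. Fos and Arc stand near 0 in cGAS KO and above 1.5 in STING KO.

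Baiap3, which encodes a protein of vesicle and dense-core granule trafficking, had the smallest p among genes alike (chr17:25242659-25256364, minus strand, mm10). It stood at 35.8, 28.7 and 34.3 CPM in cGAS KO, 28.2, 20.8 and 25.7 in STING KO, and 16.8, 12.9 and 13.4 in WT. Every knockout library was above every WT library, and the cGAS KO libraries were all above the STING KO libraries. The pooled log2 fold change was 0.99 ± 0.18 (edgeR adjusted p = 0.9999), 1.04 over 6 libraries and 0.82 after the correction. The knockouts differed by -0.40 (STING KO minus cGAS KO, 95% interval -0.85 to 0.05).

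Several of the leading genes alike are immediate early genes, which neurons switch on within minutes of activity or stress without new protein synthesis. Fosl2, an AP-1 transcription factor subunit, stood at 33.4, 45.7 and 42.1 CPM in cGAS KO, 64.4, 56.2 and 63.0 in STING KO, and 26.4, 14.9 and 26.7 in WT. The 3 groups did not overlap. Its pooled log2 fold change was 1.13 ± 0.22 (edgeR adjusted p = 0.9999), and STING KO exceeded cGAS KO by 0.60 (95% interval 0.07 to 1.14). Sik1, a salt-inducible kinase that restrains CREB target genes, stood at 21.9, 34.6 and 26.9 CPM in cGAS KO, 33.6, 43.4 and 27.6 in STING KO, and 18.4, 14.0 and 16.4 in WT. Knockout libraries all lay above WT, and the knockouts overlapped each other. The pooled log2 fold change was 0.93 ± 0.22 and the difference between the knockouts 0.33 (95% interval -0.21 to 0.87). Nr4a3, an orphan nuclear receptor induced by activity, stood at 29.1, 39.6 and 44.8 CPM in cGAS KO, 47.3, 34.1 and 55.5 in STING KO, and 21.4, 10.8 and 26.8 in WT. Its lowest knockout library was 29.1 CPM and its highest WT library 26.8 CPM, a narrow gap, with a pooled log2 fold change of 1.08 ± 0.30 and a difference of 0.27 (95% interval -0.47 to 1.01). All 3 met the rule after the correction too, at 1.12 for Fosl2, 0.87 for Sik1 and 1.17 for Nr4a3. Per1, a core gene of the circadian clock, was the fourth of the list under the rule (217 CPM in cGAS KO, 252 in STING KO, 172 in WT, pooled log2 fold change 0.44), and after the correction (0.29) it was not.

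**Figure D3:**
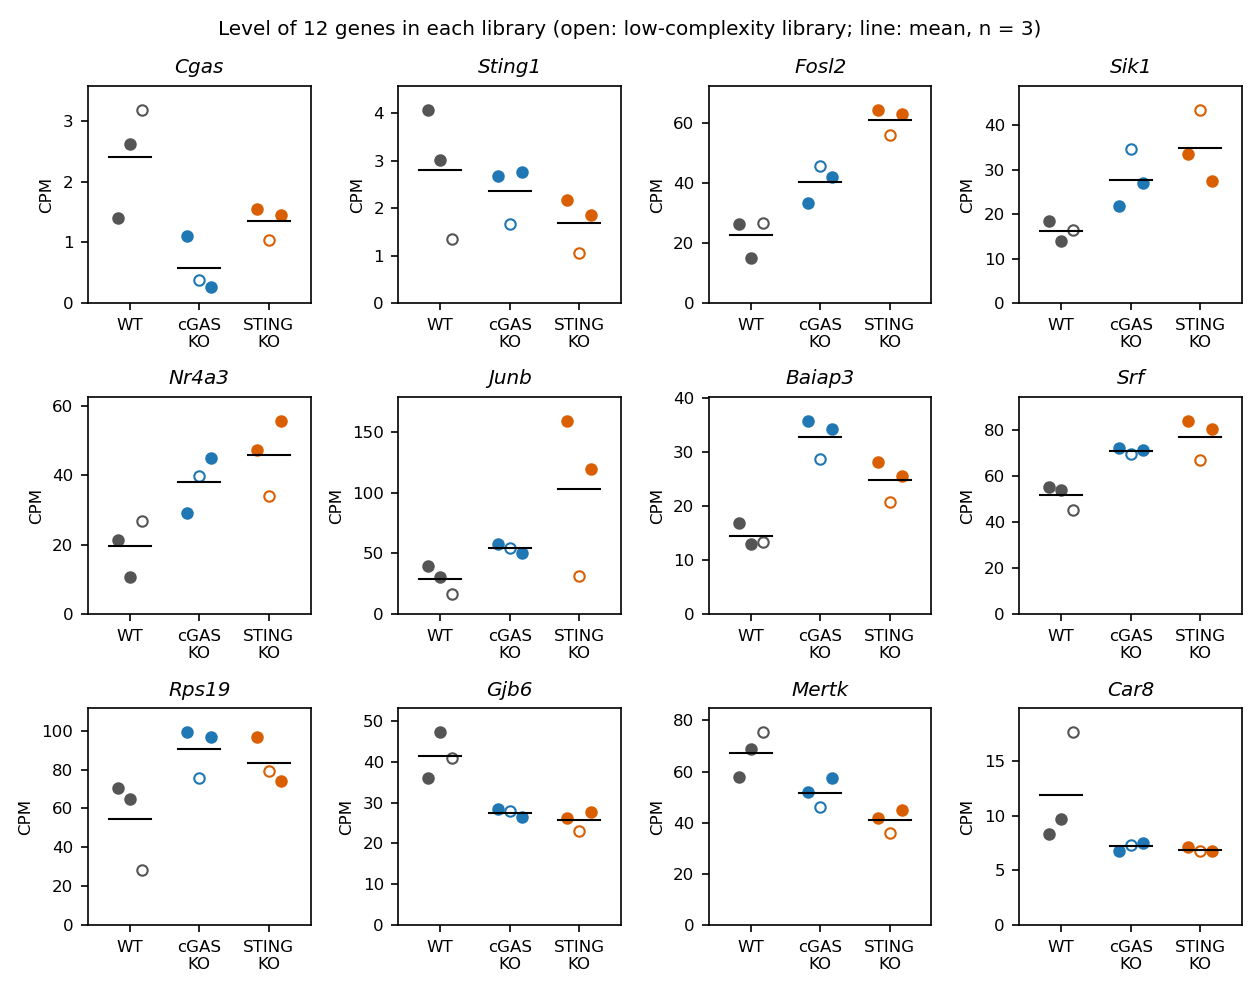
Level (CPM, y axis) of 12 genes in each library, by group (x axis); filled and open symbols are single libraries, open for low-complexity libraries, and lines are group means of 3 libraries. Fosl2, Sik1, Nr4a3, Baiap3, Srf and Rps19 have all knockout libraries above WT, and Gjb6, Mertk and Car8 all below, while Cgas, Sting1 and Junb overlap between the groups.

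The list of immediate early genes held 27 tested members. Of these, 25 were higher and 2 lower in the pooled contrast, against 8666 higher and 9155 lower over all genes, and the median log2 fold change was 0.55 against -0.01 over all genes. None passed the test across all genes. Without adjustment, 11 of the 27 had a p under 0.05, all of them higher, against 1.01% of all genes higher and 1.06% lower. That count was 15 over the 6 libraries, where 3.57% of all genes were higher at that p. After the correction it was 10, against 171 of all 17821 genes. The lower members were Bdnf, a neurotrophin, and Nr4a2, an orphan nuclear receptor. The list's mean log2 level was 4.14, 4.14 and 4.02 in WT, 4.497, 4.303 and 4.279 in cGAS KO and 5.50, 4.06 and 5.22 in STING KO. All libraries of cGAS KO were above WT, and of the STING KO libraries 2 were far above and STING KO 2, a low-complexity library, within the WT range. The median was 0.62 over 6 libraries and 0.39 after the correction, with 25 and 23 members higher, and it was above 0 in every alternative run (0.39 to 0.71).

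Members of this list were not all alike in size. The list's median was 0.20 in cGAS KO and 0.92 in STING KO, with 26 of 27 members higher in STING KO than in cGAS KO. Over all genes, 9098 of 17821 were higher in STING KO. No member passed the test of that difference in edgeR over 9 libraries. An unadjusted edgeR p under 0.05 for it was found for 9 members, all higher in STING KO. Among all 17821 genes, 147 were higher and 111 lower in STING KO at that p. Fos, the founding immediate early gene, stood at 8.30, 5.43 and 6.62 CPM in cGAS KO, 46.8, 13.2 and 28.1 in STING KO, and 5.24, 7.84 and 7.08 in WT. STING KO alone stood apart from the rest, with a difference of 2.11 (95% interval 1.16 to 3.06). Arc, a regulator of glutamate receptor trafficking, showed the same order, at 91.8, 77.6 and 80.8 CPM in cGAS KO, 356, 136 and 289 in STING KO, and 97.3, 75.8 and 80.3 in WT. Its pooled log2 fold change of 0.80 was the mean of 1.62 in STING KO and -0.02 in cGAS KO. After the correction the pooled values were 0.88 for Fos and 0.60 for Arc. DESeq2 called the difference between the knockouts for Fos, Arc and Dusp1, and edgeR over the 6 libraries called it for Arc.

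Egr2 and Junb lay between these patterns. They, and Fos, Id4, Eln, Tbk1 and Nfkbiz, were chosen after their values were seen. Egr2, a zinc finger factor, was at 13.5, 11.8 and 26.5 CPM in cGAS KO, 45.9, 11.3 and 39.4 in STING KO, and 11.8, 5.05 and 4.32 in WT, with cGAS KO 2 and STING KO 2 just below WT 1. Junb, an AP-1 subunit, was at 58.0, 54.7 and 50.2 CPM in cGAS KO, 159, 31.1 and 119 in STING KO, and 40.0, 30.6 and 16.1 in WT, with STING KO 2 inside the WT range. Both met the rule for genes alike once the GC and length trends were removed (log2 fold changes 1.69 and 1.03). Without the correction the pooled log2 fold changes were 1.73 ± 0.53 and 1.37 ± 0.47. The voom fit with library weights called both, with 8 other members of the list, at adjusted p values of 0.024 for each. Across the alternatives their adjusted p ran from 0.024 to 0.99999.

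**Figure D4:**
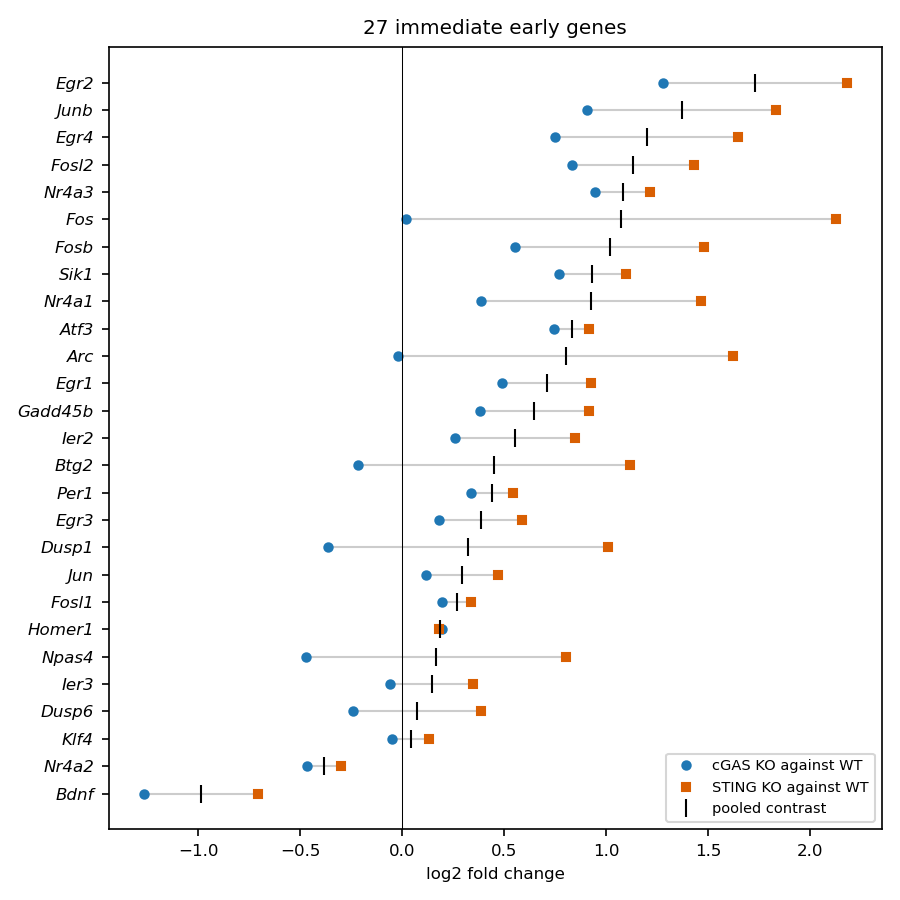
Log2 fold change (x axis) of the 27 tested immediate early genes (rows) in cGAS KO against WT (circles), STING KO against WT (squares) and in the pooled contrast (bars). Both knockouts share the WT libraries. The pooled value is above 0 for 25 genes, and 26 have a higher value in STING KO than in cGAS KO.

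Sequence upstream of the start is shown for 2 genes alike and for Fos, because cAMP response elements and serum response elements are the textbook control sites of immediate early genes. Srf encodes serum response factor, the protein that binds the CArG box of serum response elements. Capitals mark the CRE half-site TGACGT (either strand, so also ACGTCA) and the CArG box. The windows are the bases before the RefSeq start on GRCm38.p6, written in the direction of the gene and stopped where a GENCODE M21 exon of the gene begins.
Nr4a3, chr4:48045055-48045152, plus strand: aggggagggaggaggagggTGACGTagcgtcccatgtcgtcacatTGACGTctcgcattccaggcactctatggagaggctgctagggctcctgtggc
Srf, chr17:46556176-46556412, minus strand: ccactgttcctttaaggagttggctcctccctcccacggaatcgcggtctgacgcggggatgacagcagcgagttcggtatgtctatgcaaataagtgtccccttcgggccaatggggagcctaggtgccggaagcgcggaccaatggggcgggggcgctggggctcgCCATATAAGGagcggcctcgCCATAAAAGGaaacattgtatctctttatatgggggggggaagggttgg
Fos, chr12:85473640-85473889, plus strand: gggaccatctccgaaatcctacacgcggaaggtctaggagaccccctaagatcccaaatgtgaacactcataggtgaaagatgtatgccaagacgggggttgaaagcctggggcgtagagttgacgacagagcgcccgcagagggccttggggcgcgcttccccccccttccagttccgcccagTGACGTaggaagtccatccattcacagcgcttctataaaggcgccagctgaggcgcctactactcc

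The Nr4a3 window holds 2 CRE half-sites and the Srf window 2 CArG boxes, with 1 CRE half-site upstream of Fos. Srf stood at 72.1, 69.5 and 71.0 CPM in cGAS KO, 83.8, 66.9 and 80.4 in STING KO, and 55.2, 54.0 and 45.2 in WT, with no overlap and a pooled log2 fold change of 0.52 ± 0.14, which was 0.19 after the correction (transcript GC content 64.4%). In the 250 bases before the start, a CRE half-site was found for 11 of the 21 immediate early genes present in the promoter table (52.4%), for 12 of 105 genes higher in both knockouts (11.4%), for 11 of 68 genes lower in both (16.2%) and for 1971 of all 27025 genes (7.29%). A CArG box was found for 1 of 21, 2 of 105 and 0 of 68, against 1.62% of all genes. The shares over all genes include genes not expressed here, whereas genes alike had at least 5 CPM. Shares over expressed genes only were not computed, so a difference from these shares is no result about the lists. Promoters of Baiap3, Fosl2, Kcns1 and Zfp622 held neither motif in this window. These are matches of letters to fixed patterns, and no binding was measured. Sites further upstream than 250 bases, or spelled differently, were not looked for in Fos or any other gene.

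Other genes higher in both knockouts differed in how far the correction moved them. Zfp622, a zinc finger protein of ribosome assembly, was at 42.2 CPM in cGAS KO, 33.7 in STING KO and 22.5 in WT, with no overlap and log2 fold changes of 0.74 ± 0.21 without and 0.81 with the correction. Id4, an inhibitor of basic helix-loop-helix factors, also met the rule in both forms (0.40 and 0.48). For Zfpm1, a GATA cofactor, Lrrc4b, a synaptic adhesion protein, and Fam171a2, a membrane protein, the values without the correction were 0.63, 0.64 and 0.55, and with it 0.23, 0.34 and 0.14. All 3 have transcripts above 60% GC (66.8%, 63.1% and 66.8%). Kcns1, a modulatory potassium channel subunit, and Adra2c, the alpha-2C adrenergic receptor of striatal neurons, went from 0.75 and 0.74 to 0.49 and 0.44. Pou3f1, a neural POU factor, went from 0.68 to 0.39. None of these 6 met the rule after the correction. Bhlhe41, a clock repressor, did not meet it either, although its value was nearly the same (0.67 and 0.68).

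Ribosomal protein genes were higher in the pooled contrast in 36 of 36 tested members, with a median log2 fold change of 0.37. None passed the test. At an unadjusted edgeR p under 0.05 there were 2 members over 9 libraries, 5 over the 6 libraries and 9 after the correction, all higher. Of all genes, 1.01% were higher at that p over 9 libraries, 3.57% over the 6, and 171 of 17821 after the correction. The rule for genes alike was met by 1 member without the correction and by 5 with it. Over all genes it was met by 214 without the correction and by 199 with it. The list's mean log2 level was 6.95, 6.75 and 5.25 in WT, 7.14, 6.65 and 7.09 in cGAS KO and 7.08, 6.11 and 6.91 in STING KO, so that WT 3 stood far below and the other WT libraries lay within the knockout range. The median was 0.21 over 6 libraries and 0.36 after the correction, and between 0.01 and 0.63 over the alternatives. Rps19, a small subunit protein, met the rule with and without the correction. It was at 99.3, 75.5 and 96.8 CPM in cGAS KO, 97.1, 79.1 and 74.3 in STING KO, and 70.3, 64.8 and 28.2 in WT, with a pooled log2 fold change of 0.68 ± 0.27 (0.44 over 6 libraries, 0.70 after the correction). The alternatives for the list include a fit without WT 3, and their lowest median, 0.01, is close to no difference. The part of library WT 3 in this list's value was not tested beyond these fits.

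Among the genes lower in both knockouts, Gjb6 encodes connexin 30, a gap junction protein of astrocytes, and had the smallest p of those alike (chr14:57123303-57133611, minus strand, mm10). It stood at 28.3, 27.9 and 26.4 CPM in cGAS KO, 26.3, 23.1 and 27.8 in STING KO, and 36.0, 47.2 and 41.0 in WT, with a clear gap between knockouts and WT. The pooled log2 fold change was -0.64 ± 0.14 (edgeR adjusted p = 0.9999), -0.61 over 6 libraries and -0.71 after the correction, where the libraries no longer met the rule. The knockouts differed by -0.10 (95% interval -0.48 to 0.28). Mertk, a receptor kinase with which microglia and astrocytes engulf dying cells and synapses, stood at 51.9, 46.0 and 57.5 CPM in cGAS KO, 41.7, 36.2 and 44.9 in STING KO, and 57.8, 68.7 and 75.4 in WT. Its highest knockout value (57.5 CPM) and lowest WT value (57.8 CPM) were nearly equal, and the pooled log2 fold change was -0.55 ± 0.15, or -0.50 after the correction.

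Car8, a carbonic anhydrase-related protein, was at 6.73, 7.32 and 7.47 CPM in cGAS KO, 7.15, 6.76 and 6.76 in STING KO, and 8.31, 9.66 and 17.6 in WT. The knockout libraries lay close together and below WT, and the pooled log2 fold change of -0.75 ± 0.25 was -0.35 over the 6 libraries, without the high value of WT 3, and -0.65 over 9 libraries after the correction. Sult1a1, a phenol sulfotransferase, had -0.68 over 9 libraries, -0.70 over 6 and -0.76 after the correction, and Fgfr3, an astrocyte growth factor receptor, had -0.35, -0.23 and -0.46. Both met the rule in either form, as did the predicted gene Gm40841 (-0.80 and -0.71) and Eln, elastin (-0.47 and -0.63). Slco1a4, an organic anion carrier of brain endothelium, Sc5d, an enzyme of cholesterol synthesis, and Emb, a cell adhesion protein, were alike without the correction only, with pooled log2 fold changes of -0.43, -0.39 and -0.60 and corrected values of -0.32, -0.29 and -0.55.

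In the astrocyte list, 6 of 18 tested members were higher and 12 lower, with a median of -0.08 (-0.11 over 6 libraries), and the sign of that median changed in 4 alternatives. Its summed level was 7730 to 9572 CPM in the knockouts and 8541 to 10650 CPM in WT. Slc1a2, the main astrocyte glutamate transporter, ran from 2834 to 4392 CPM in the knockouts and from 3194 to 6733 CPM in WT. For the matrix and fibroblast list, 17 of 22 members were lower, the median was -0.32 (-0.33 over 6 libraries, -0.41 after the correction), and it was below 0 in every alternative (-0.42 to -0.17). Its summed level was 436.5 to 705.6 CPM in the knockouts and 580.1 to 697.6 CPM in WT, so the groups overlapped. Fn1, fibronectin, was at 77.2 CPM in cGAS KO, 65.3 in STING KO and 103 in WT (-0.53 ± 0.20, edgeR adjusted p = 0.9999) and met the rule after the correction only. For the choroid plexus and ependyma list the median was -1.28, and without WT 1 it was 1.03, so its direction rested on that library. Ttr, the transthyretin of choroid plexus, was at 2487 CPM in WT 1 and at 78.5 and 14.8 CPM in the other WT libraries.

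In the pathway that both knockouts interrupt, of 21 tested genes of the cGAS-STING pathway, 12 were higher and 9 lower, with a median of 0.05 (0.07 over 6 libraries). Cgas was the only one with an unadjusted p under 0.05, and no member was alike. Tbk1, the kinase that STING recruits, was at 43.0 CPM in cGAS KO, 46.9 in STING KO and 48.2 in WT (pooled log2 fold change -0.10). Traf3, an adaptor of the same arm, had -0.32 over 9 libraries and -0.05 over 6.

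Type I interferon genes divided evenly, 16 higher and 15 lower of 31 tested, with a median of 0.07 over 9 libraries and -0.07 over 6. At an unadjusted edgeR p under 0.05 there were 0 members over 9 libraries, 1 (lower) over the 6 libraries and 2 (both higher) after the correction. Without the correction 0 members had every knockout library above WT and 1 had every one below, against 189 and 152 of all 17821 genes. With the correction 2 members were above and 0 below, against 175 and 158 of all 17821 genes. None met the rule for genes alike in either form. That rule asks for a mean of at least 5 CPM, so members below this level could not meet it whatever their difference from WT. Xaf1 and Ifit3b, the members with the smallest p, were at 4.51 and 3.06 CPM in cGAS KO, 6.05 and 3.35 in STING KO, and 2.98 and 1.69 in WT. Their pooled log2 fold changes were 0.80 ± 0.36 and 0.91 ± 0.48 (SE) over 9 libraries, 0.38 and 0.58 over the 6 libraries, and 0.86 and 1.03 after the correction.

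Interferon gamma genes were higher in 18 of 19 tested members, with a median of 0.42 (0.31 over 6 libraries, 0.40 after the correction, 0.19 to 0.54 over the alternatives). Of these only Gbp4, an interferon-induced GTPase, had an unadjusted p under 0.05. It stood at 2.21, 1.89 and 3.01 CPM in cGAS KO, 2.36, 4.67 and 4.81 in STING KO, and 1.76, 1.66 and 1.42 in WT, all knockout libraries above WT, with a log2 fold change of 0.92 ± 0.36 (0.999 after the correction). The list's mean log2 level was 1.24, 1.13 and 0.59 in WT, 1.44, 1.13 and 1.55 in cGAS KO and 1.51, 1.52 and 1.66 in STING KO, with overlap at cGAS KO 2 and with WT 3 lowest. For MHC class I presentation 12 of 16 were higher (median 0.29), and H2-K1, a classical class I heavy chain, was at 16.9 CPM in cGAS KO, 20.6 in STING KO and 12.6 in WT (0.57 ± 0.32, or 0.495 after the correction). For NF-kB and cytokine genes 8 of 14 were higher (median 0.23), and the sign of that median changed in 2 alternatives. Nfkbiz, an inducible NF-kB cofactor, was lower in all knockout libraries (2.79 to 7.49 CPM) than in WT (7.54 to 8.16 CPM).

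**Figure D5:**
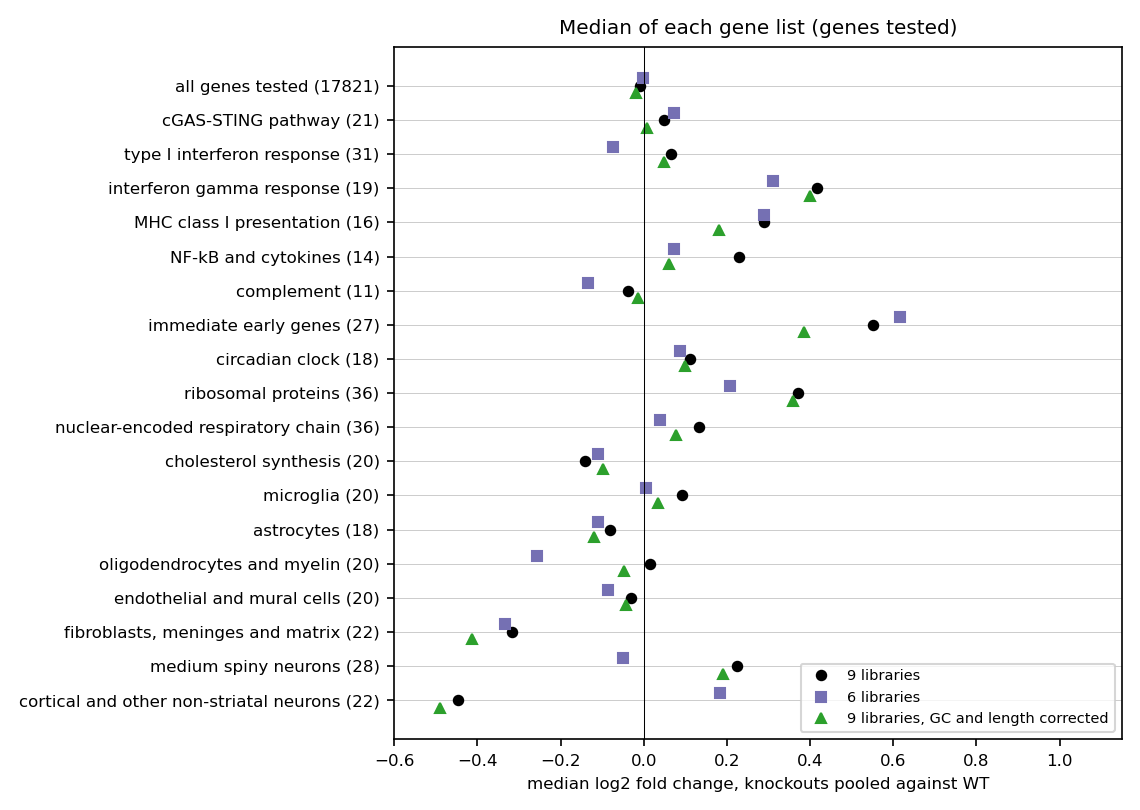
Median pooled log2 fold change (x axis) of 18 gene lists and of all genes tested (rows, number of genes tested in brackets) over 9 libraries (circles), over the 6 libraries that are not of low complexity (squares) and over 9 libraries after the GC and length correction (triangles). Immediate early, interferon gamma and ribosomal protein genes are above 0 in all 3 fits and matrix genes below, while the medium spiny neuron and cortical lists change sign over 6 libraries.

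Of 11 tested complement genes, 5 were higher and 6 lower, with a median of -0.04 (-0.13 over 6 libraries), and the sign of that median changed in 5 alternatives. C4b, a complement component that tags synapses and debris, was the only member with an unadjusted p under 0.05 over 9 libraries, and it was higher in the mean of each knockout (43.3 CPM in both, 27.2 in WT), with cGAS KO 1 at 27.1 CPM inside the WT range of 22.8 to 30.6 CPM and a pooled log2 fold change of 0.67 ± 0.26 (0.61 after the correction). The microglia list had a median of 0.09, with 11 of 20 members higher, and summed levels of 398.7 to 717.8 CPM in the knockouts and 383.5 to 575.2 CPM in WT. Only 2 of 18 markers of infiltrating leukocytes, Lyz2 and Itgal, passed the count filter. The medium spiny neuron list, 27 of 28 members higher with a median of 0.22, had a median of -0.05 over the 6 libraries, and the cortical neuron list went from -0.45 to 0.18. Both signs also changed without WT 3 alone.

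Some of the named genes differed from WT mostly in a single knockout. AC149090.1 was at 726, 383 and 217 CPM in cGAS KO, 1117, 1411 and 1118 in STING KO, and 176, 256 and 255 in WT. STING KO lay far above the other groups, and cGAS KO overlapped WT. Gm10600 had no count in any STING KO library, where 3 counts would be 0.175 to 0.208 CPM, and stood at 1.16, 1.28 and 1.51 CPM in cGAS KO and 1.45, 1.99 and 3.54 CPM in WT. mt-Nd3, encoded by mitochondrial DNA and part of the respiratory chain, was at 5.22, 1.74 and 3.97 CPM in STING KO, 33.5, 41.9 and 68.7 CPM in cGAS KO and 38.9, 44.3 and 14.9 CPM in WT. Its knockout log2 fold changes had opposite signs (0.55 in cGAS KO and -3.16 in STING KO), and their difference of -3.71 (95% interval -4.91 to -2.52) was not called in edgeR over 9 libraries (adjusted p = 0.767) and was called in 6 alternatives, with adjusted p from 8.02e-10 in DESeq2 to 0.0438 in edgeR over the 6 libraries with the correction. Robo3, an axon guidance receptor, was below WT in every knockout library but by unequal sizes (-1.49 in cGAS KO and -0.68 in STING KO), and Npr3, the natriuretic peptide clearance receptor, likewise had -2.21 and -0.76, with STING KO overlapping WT.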

How the data were processed

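Raw counts per gene were deposited by the authors, 1 file per library. HISAT2, featureCounts and mm10 are named in the submitters' processing notes, while tool versions, the annotation release, strand and the treatment of multi-mapped reads were not stated by the labels. Gene IDs were matched to GENCODE M21 (54495 of 54532). Counts were filtered with filterByExpr, scaled by TMM and fitted with edgeR 4.0.16 (quasi-likelihood test, R 4.3.3) over all 9 libraries, with 1 mean per group and no covariate. The same fit gave each knockout against WT and STING KO minus cGAS KO. P-values were adjusted over all genes tested (Benjamini-Hochberg), and a gene was called below 0.05. A test of both knockouts took the larger of their p-values where signs agreed. Errors of log2 fold changes are SE, and intervals are 95%. CPM use TMM-scaled library sizes, and mean log2 levels a prior count of 2. DESeq2 1.42.0 and limma 3.58.1 (voom) were alternatives.

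The genes named are Cgas and Sting1, the 12 smallest p-values in each direction, 8 genes alike in each direction, the most abundant member and the 2 smallest p-values of each list, and 5 genes unlike between the knockouts. Not every gene the rule selects is reported here. The contrast, the 33 gene lists and the rules were chosen with earlier results of these data known. The GC and length correction took each library's trend of log2 CPM on transcript GC content and log length as an offset, and was chosen after seeing the data. Fits were checked on simulated data. Same-numbered libraries are not stated to share an animal, litter or day, and the replicate block is given with the alternatives.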

Additional observations from a re-analysis of the deposited data

Results flagged for a closer look

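Dusp1, a phosphatase that switches off MAP kinases, was lower than every WT library in every cGAS KO library and higher in every STING KO library. The log2 difference, STING KO minus cGAS KO, was 1.37, and edgeR did not call it after adjustment over all genes.

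In 6 named genes a single knockout library stood apart from the other 5, by a criterion that chance alone meets in about 5% of groups. Whether 6 is more than that share of the groups screened was not tested. Zfp622 was at 53.5 CPM in cGAS KO 2, with the next library at 37.8 CPM. Bhlhe41 was at 86.8 CPM in cGAS KO 3, with the next at 65.1 CPM. The other 4 were highest in STING KO 2, a low-complexity library: Ogn, a matrix proteoglycan, at 6.55 CPM (next 3.27), Nlrc5, an activator of MHC class I genes, at 3.97 CPM (next 1.79), Tap1, a peptide transporter of the same pathway, at 8.50 CPM (next 3.73), and Kcne2, a potassium channel subunit of choroid plexus, at 3.14 CPM (next 0.696).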

How the results depend on the processing

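The pooled contrast called 0 genes in edgeR under every normalisation, filter, covariate, left-out library and correction run, 4 with DESeq2 and 38 with voom and library weights. STING KO minus cGAS KO called 0 genes in the main test, 4 with no count filter, 8 with DESeq2, 29 with library weights, 1 with low complexity as a covariate, 3 over the 6 libraries and 4 over the 6 with the GC and length correction. Genes alike and higher numbered 963 over the 6 libraries and 609 over the 6 with the correction, and 135 to 373 when 1 library was left out. Genes alike and lower numbered 886, 627 and 94 to 446. With the replicate block 0 genes were called and 214 had an unadjusted p under 0.05, against 369 without it. Of 9 pairs of libraries with the same number, 4 correlated above 0.1, and 3 of 9 libraries correlated best with their own number.

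The direction reversed for Tbk1 over the 6 libraries with the correction (0.0187), for Snhg1 with library weights (-0.0415) and for Nnt with library weights (0.38). With 1 library left out, the log2 fold change of Traf3 ran from -0.49 to 0.0058 (reversed without WT 3), Snhg1 from -0.18 to 0.44 (without cGAS KO 1), the log2 fold change of Ttr from -3.96 to 1.06 and the log2 fold change of Kcne2 from -3.46 to 0.0112 (both without WT 1). The cause was not tested. Other values for named genes kept their direction (1675 on the same side of the threshold, 26 newly past it). Of list medians, 747 moved by less than the spread between libraries and 11 by more. The biological coefficient of variation was 38.8% over 9 libraries, 23.4% with low complexity as a covariate and 17.2% over the 6 libraries, and edgeR called 0 genes in the pooled contrast in each.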

Other observations

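Cell cycle genes, which are few in adult striatum, were higher in 17 of 20 tested members of that list, with a median log2 fold change of 0.19 over 9 libraries, 0.09 over the 6 libraries and 0.26 after the GC and length correction, and no member had an unadjusted p under 0.05. For the circadian clock 12 of 18 members were higher, with a median of 0.11 (0.06 to 0.14 over the alternatives). For cholesterol synthesis 13 of 20 members were lower, with a median of -0.14 (-0.17 to -0.03). Over all genes of at least 5 CPM, 214 of 12001 were alike. Among the autosomes and the X chromosome, the share ran from 2 of 713 genes on chromosome 1 (0.281%) to 17 of 575 on chromosome 10 (2.96%). Differences between chromosomes were not tested. Of mitochondrial genes 0 of 22 and of Y-linked genes 0 of 5 were alike, numbers too small to compare with the share over all genes.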
